A study of Drosophila melanogaster with 3 samples.

Results

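The proteasome subunit genes of Drosophila melanogaster were examined for binding of Ultraspiracle (USP), a nuclear receptor that pairs with EcR to form the receptor for the moulting hormone ecdysone and that corresponds to RXR in vertebrates. The members were all protein-coding genes of the Ensembl annotation whose symbol begins with Prosalpha or Prosbeta, or with Rpn or Rpt and a digit, which gave 48 genes of 13945. USP binding had been mapped by chromatin immunoprecipitation and sequencing (ChIP-seq). The sample descriptions give an antibody against GFP, while the antibody field of the labels names usp. The material was whole wandering larvae of the third instar, both sexes pooled, from the strain usp-GFP, which stably carries usp fused at its C terminus to eGFP; age in hours is not given. There were 3 biological replicates of this 1 group, numbered 1 to 3, no second genotype or stage, and the labels do not say what drives the fusion or whether the normal usp gene was also present. Whole larvae mix all tissues, so a site used in few cells and a site weakly used in many cannot be told apart.

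The proteasome is the large protease that degrades ubiquitin-tagged proteins. Its barrel-shaped core is built of outer rings of alpha subunits and inner rings of beta subunits, of which beta1, beta2 and beta5 cut peptides. The regulatory particle that caps the core consists of a base, with the Rpt ATPases that unfold substrates and with ubiquitin receptors, and of a lid, which contains the deubiquitylase Rpn11. In flies, several subunits have additional gene copies whose symbols carry an R or a T after the subunit number, and several of these are known for expression in the testis. The onset of metamorphosis, when the ecdysone receptor acts, is a time of extensive protein and tissue breakdown.

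A gene counted as bound when its body, or the 1000 bp before it, held the summit of a peak. The main list was the authors' list of 11195 peaks that passed a threshold on the irreproducible discovery rate (IDR). In it, 4990 of 13945 protein-coding genes were bound (35.8%), and among the 7991 genes within the members' length range of 881 to 4500 bp 2567 were bound (32.1%). The full lists, of the single replicates and of the pooled data, held 30000 peaks each, and a replicate was cut to its 11195 peaks of highest signal for calls. Ranks run from 1, the highest signal. The signal is the authors' score per peak and serves only to rank peaks within a list. The number of reads behind the lists is unknown from these files. Genes are not replicates of a condition, so classes of genes are set side by side with the spread over the 3 replicates and without a test.

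Of the 48 members, 17 were bound (35.4%). This share is close to that of all protein-coding genes, but it joined unlike groups. Of the 32 genes for standard subunits 16 were bound (50%; 51.0% ± 9.55 over the replicates, SD, n = 3), and of the 16 R or T paralogs 1 was bound (6.25%; 4.17% ± 3.61, n = 3). The median length was 1390 bp for standard genes, from 914 to 4500 bp, and 1282 bp for paralogs, from 881 to 1778 bp. When each member was given the bound share of its length class among all protein-coding genes, in 20 classes, the values were 28.4% for the standard genes and 25.0% for the paralogs. Replicate 1 had 17 bound standard genes (53.1%) against 35.9% of all genes, replicate 2 had 13 (40.6%) against 33.8%, and replicate 3 had 19 (59.4%) against 36.9%. The share of standard genes was thus above that of all genes in 3 of 3 replicates, and that of paralogs, with 1, 0 and 1 bound, was below it in 3 of 3.

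The higher share of standard genes was not seen among the strongest peaks. With the 5597 strongest peaks alone, 4 of the 32 standard genes were bound (12.5%), against 21.9% of all protein-coding genes and 14.7% at the same lengths. When an IDR-thresholded summit also had to be strong in the other replicates, 9 standard genes remained without replicate 1 (28.1%, all genes 30.2%) and 8 without replicate 3 (25.0%, all genes 29.7%), so that the share fell to just under that of all genes; at the same lengths it was 22.5% in both cases. Without replicate 2 there were 12 (37.5%, all genes 31.9%). These counts add a filter to the IDR-thresholded list, which was itself derived from replicates 2 and 3. They therefore do not show how the list depends on the replicate left out. In the full pooled list of 30000 peaks, 24 standard genes (75.0%) and 3 paralogs (18.8%) had a summit, against 49.2% of all genes.

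**Figure D1:**
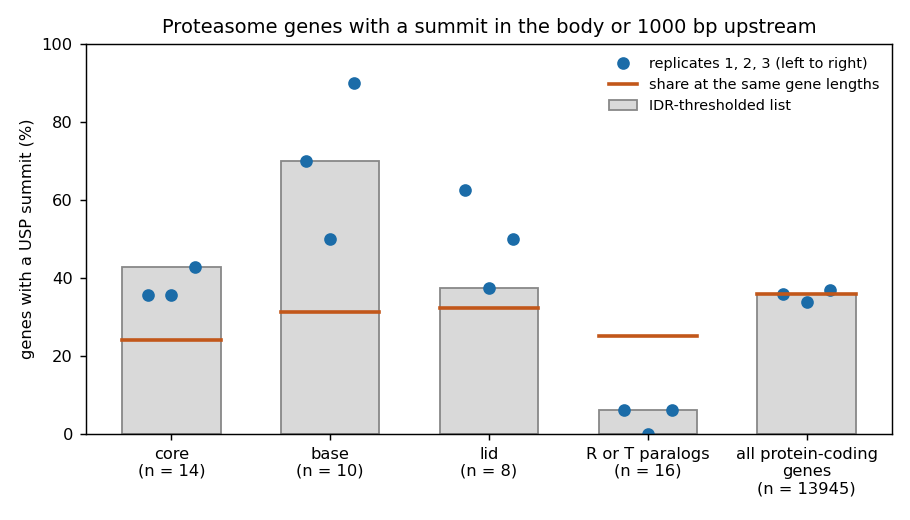
Percent of genes with a USP summit in the body or 1000 bp upstream, by class of proteasome gene and for all protein-coding genes; grey bars show the IDR-thresholded list, blue points replicates 1, 2 and 3 from left to right, and orange lines the bound share of all protein-coding genes at the same lengths. The base bar reaches 70% with replicates from 50 to 90%, and the paralog bar 6.25%.

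By part of the complex, 6 of 14 core genes were bound (42.9%; 38.1% ± 4.12, n = 3), 7 of 10 base genes (70%; 70% ± 20) and 3 of 8 lid genes (37.5%; 50% ± 12.5). Within the core these were 2 of 7 alpha genes and 4 of 7 beta genes. The shares at the same lengths were 24.2% for core, 31.2% for base and 32.3% for lid. The base ranged from 5 to 9 bound genes over the replicates, the lid from 3 to 5 and the core from 5 to 6. Over the replicates the ranges of the shares of base and lid overlapped, and so did those of core and lid. The lowest base value (50%) was above the highest core value (42.9%). Within each replicate the base was above the lid, with 70%, 50% and 90% against 62.5%, 37.5% and 50% in replicates 1, 2 and 3. The lid was above the core in each, at 35.7%, 35.7% and 42.9% for the core, but below it in the IDR-thresholded list. When summits also had to be strong in the replicates other than 1, or other than 3, the base fell to 3 and 2 genes. The core had 5 in both cases, which left the base share (30% and 20%) below that of the core (35.7%). In the pooled list the order of base and lid was the other way round, with 7 of 10 base genes and 7 of 8 lid genes. In replicate 1 alone 5 lid genes were bound (62.5%).

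By median rank, the strongest summits of bound members were weaker than those of all bound genes. The median rank of the strongest summit of the 17 bound members was 7486, and it was 4359.5 over all 4990 bound genes and 5335 over bound genes of the same length range. In the replicates' own lists the medians were 7828 ± 657 for members, 5320 ± 107 for genes in the length range and 4409 ± 95 for all genes (n = 3). The lowest of the 3 member medians, 7376.5, was above the highest of the other 2 sets. Of the bound members 4 had a summit among the 5597 strongest peaks (23.5%), which 61.2% of all bound genes and 53.1% of those in the length range had.

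Rpn10, a ubiquitin receptor of the base, held the best ranked IDR-thresholded summit of the family, rank 1773 with a signal of 1846, on 3L at 21537031. It lay 31 bp inside the transcript from the start site and was the gene's only summit. The same site ranked 1925 in replicate 1 and 1458 in replicate 3. Replicate 2 was the exception, since its full list had no summit within 13443 bp of the start site. Of the 2000 strongest IDR-thresholded summits, 4 had none of replicate 2 within 500 bp, and the Rpn10 summit was one of these; for replicates 1 and 3 the number was 0. No other protein-coding gene had a start site within 500 bp of it.

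Rpt2, an ATPase of the base, had its summit on 3R at 23931458, 24 bp upstream of a start site and 181 bp from that of CG13599. It ranked 5467 with a signal of 765, and 4004, 7563 and 6230 in replicates 1, 2 and 3. Rpn2, a scaffold subunit, had a summit 92 bp upstream on 3R at 29153432 with rank 7185 and a signal of 592, and 6794, 12513 and 6387 in the replicates. Replicate 2 was thus the lowest for both genes, and for Rpn2 it fell past the 11195 strongest. The Rpn2 summit also lay 166 bp from the start of Slbp, whose product binds the ends of histone mRNAs.

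The remaining bound base genes were weaker. Rpn1, the other large scaffold subunit, had rank 9353 with its summit 183 bp downstream of the start site. The ATPase gene Rpt3 had rank 8783 with a summit 529 bp upstream that lay 154 bp from the start of CG11122. Rpt4, also an ATPase gene, had rank 10031 with a summit on X at 6291248, 3 bp from its start site. Within 100 bp of these 3 sites, ranks ran from 7798 to 15928 in replicate 1, from 7271 to 16503 in replicate 2 and from 7603 to 12816 in replicate 3, so that in each replicate at least 1 of the sites fell outside the 11195 strongest peaks. Rpn1 had stronger summits nearer its start site in replicates 2 and 3, 35 and 36 bp away. They ranked 10642 and 10503, so that Rpn1 was bound in both.

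The stretches just upstream of the start sites of Rpn10, Rpn2 and Rpt4 are printed because they hold or adjoin the summits described above. That of Rpt2 lies in an exon of its neighbour and is not shown. They run 5′ to 3′ on the strand of the gene, end at the base before the start site nearest the summit, hold at most 150 bases and stop where an annotated exon begins. Sequence is from the RefSeq copy of release 6, whose coordinates are those of dm6. Capitals mark the summit base with up to 5 bases on each side; the Rpn10 summit lies past the end of its stretch.
Rpn10, chr3L:21536862-21536999, plus strand: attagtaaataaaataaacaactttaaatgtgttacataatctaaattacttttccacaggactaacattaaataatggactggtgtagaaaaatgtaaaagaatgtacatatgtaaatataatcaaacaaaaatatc
Rpn2, chr3R:29153374-29153523, plus strand: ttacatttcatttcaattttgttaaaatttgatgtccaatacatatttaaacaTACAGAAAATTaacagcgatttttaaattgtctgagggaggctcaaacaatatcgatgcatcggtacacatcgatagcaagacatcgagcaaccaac
Rpt4, chrX:6291246-6291302, minus strand: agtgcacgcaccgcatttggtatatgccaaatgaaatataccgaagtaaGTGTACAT
None of these 3 stretches held a match to AGGTCA, the hexamer that nuclear receptors of this kind recognise, or to the palindromic ecdysone response element known as EcRE IR1.

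Among beta genes of the core, Prosbeta1, which encodes a catalytic subunit, ranked highest. Its only summit ranked 2259 with a signal of 1563, and 2341, 3597 and 1910 in replicates 1, 2 and 3, so it was among the strongest peaks of all 3. The summit on 2R at 16014886 lay 99 bp upstream of Prosbeta1 and 22 bp from the start site of Rrp42, an RNA exosome gene, which was nearer. Prosbeta7 had its only summit on 3R at 5358159, 16 bp from a start site, with rank 7453, signal 572 and replicate ranks of 7609, 9388 and 6211. Prosbeta3 had 2 summits. Its stronger one, on 3R at 9005579 with rank 7614 and signal 560, ranked 6237, 11583 and 8064 in replicates 1, 2 and 3. It lay 647 bp downstream of its start site in the body and also counted for the neighbouring gene Iru, and its weaker one, rank 8566, lay 153 bp upstream. Prosbeta5, another catalytic subunit gene, ranked 10354, signal 401, with a summit on 2R at 10819992, 14 bp from its start site and 108 bp from that of the planar polarity gene dgo; at that site replicates 1 and 3 ranked 12214 and 8494, and replicate 2 had no summit within 100 bp.

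Among alpha genes, Prosalpha5 and Prosalpha7 were bound, both in every replicate. Prosalpha5 had a summit on 2R at 17411891, 876 bp upstream, at rank 6277 and signal 675, with 7144, 6575 and 6351 in replicates 1, 2 and 3, the narrowest range among the 13 bound members whose site was found in all 3. Its weaker summit, rank 10948, lay 17 bp from the start site. Prosalpha7 had its summit on 2R at 9847910, 74 bp upstream, at rank 7486 and signal 570, with 6914, 8704 and 7449 in the replicates, and 151 bp from the start of CG1671.

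The lid genes Rpn9, Rpn8 and Rpn7 were bound at ranks 8868, 9102 and 11053, with signals of 479, 466 and 371. Rpn8, the partner of the deubiquitylase subunit, had its summit on 2R at 24402465, inside the gene body and 2437 bp downstream of its first start site. This summit lay 540 bp upstream of the nearest start site of Rpn8 and 81 bp from one of the kinase gene Slik. It ranked 10845, 8332 and 8659 in replicates 1, 2 and 3. The Rpn7 summit, on 3R at 22462647 and close to the end of the list, ranked 15858, 11786 and 9610 in the replicates and lay 593 bp upstream and 192 bp from the start of the clathrin adaptor gene AP-2mu. In replicate 1 another summit, 352 bp upstream of Rpn7, ranked 11100, so that the gene was bound there. The Rpn9 summit, on 3R at 23733156, ranked 10112 and 7728 in replicates 1 and 3, was missing within 100 bp in replicate 2, and lay 145 bp from a start site of Rpn9. The summits of Rpn8 and Rpn7 thus lay nearer to a start site of another gene than to one of their own. By summits within 500 bp of their own start sites 1 lid gene was bound.

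Rpn13, a ubiquitin receptor of the base, illustrates the same overlap. Its stronger summit, on 2R at 13961378, ranked 2435 with a signal of 1473, and 1870, 4063 and 2526 in replicates 1, 2 and 3. It lay 974 bp upstream of Rpn13 and 197 bp from the start of CtsL1, the cathepsin L gene. Its other summit, rank 4396, lay 204 bp upstream of Rpn13, with 4969, 3030 and 4763 in the replicates. By the nearer summit alone Rpn13 was therefore still among the 5597 strongest peaks.

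Rpt3R was the only bound paralog. Its summit on 3R at 9756396 lay 114 bp downstream of its start site and 95 bp from that of Alg12, a mannosyltransferase gene. It ranked 6392 with a signal of 662, and 6137 and 6802 in replicates 1 and 3. Replicate 2 had no summit within 3257 bp of the start site of Rpt3R. Paralogs and standard genes of similar sequence can share reads, and the sources used here do not say how such reads were treated, so the values of paralogs are uncertain.

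**Figure D2:**
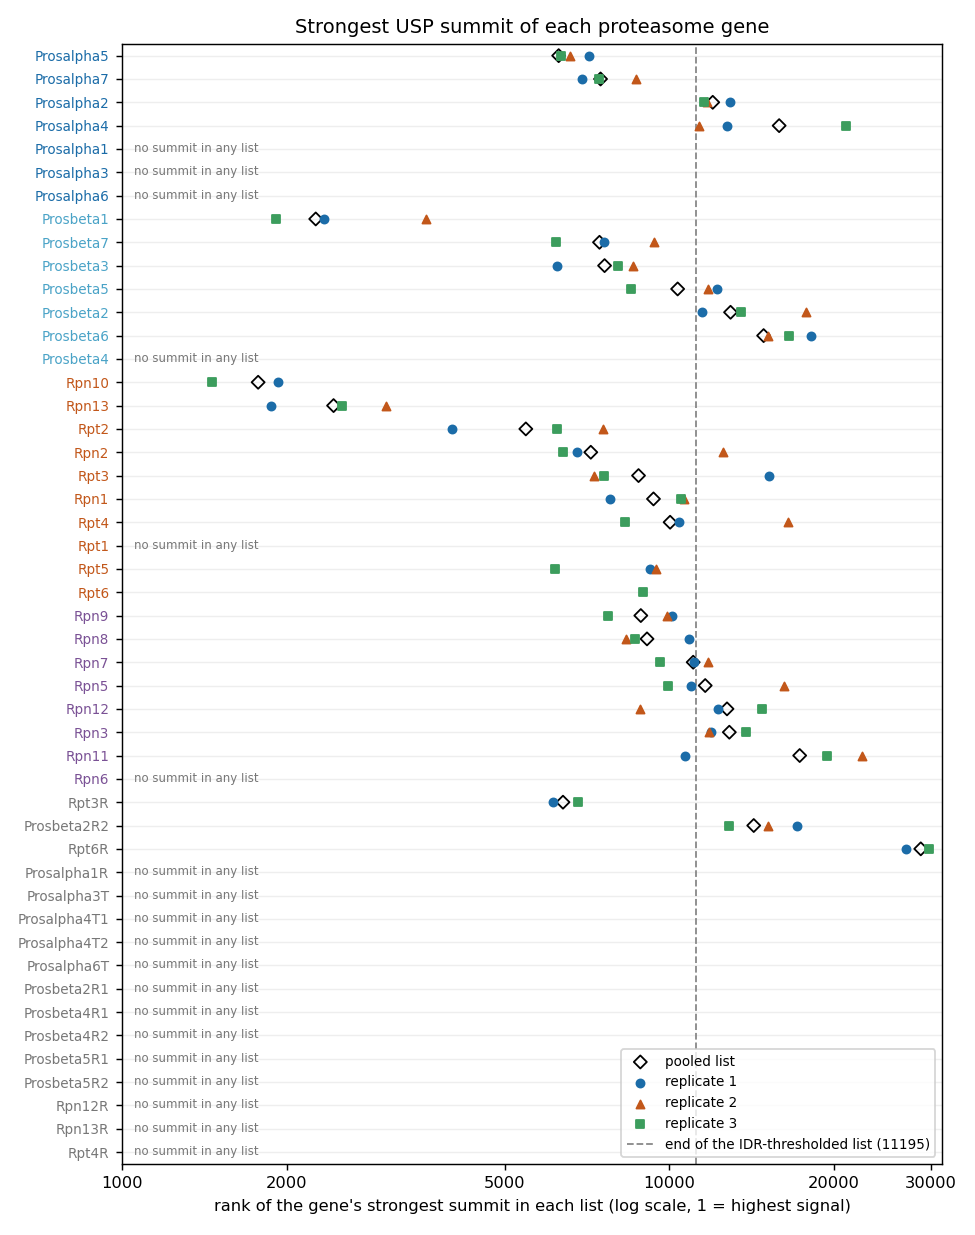
Rank of the strongest summit of each of the 48 proteasome genes (log scale) in the pooled list and in each replicate's full list of 30000, with the end of the IDR-thresholded list at rank 11195 as a dashed line; label colours mark alpha, beta, base, lid and paralog genes from top to bottom, and for a gene with several summits the best of each list is drawn. In the pooled list Rpn10 stands highest at 1773 and 8 standard genes lie past the line, and 13 of 16 paralogs have no summit in any list.

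The other 16 standard genes had no IDR-thresholded summit. In the pooled list 8 of them had a summit past the end of that list, at ranks from 11627 to 17301 and with signals of 186 to 348. They were Prosalpha2, Prosalpha4, Prosbeta2, Prosbeta6, Rpn3, Rpn5, Rpn11 and Rpn12. All 8 of these summits lay within 500 bp of a start site of the gene, between 27 and 436 bp away. Rpn5, a lid scaffold gene, was nearest to the limit at 11627 and was inside the 11195 strongest peaks of replicate 1 (10966) and replicate 3 (9952) but not replicate 2 (16165). Rpn11, the deubiquitylase gene, ranked 17301 in the pooled list and 10685, 22467 and 19423 in replicates 1, 2 and 3, so that replicate 1 alone would call it bound.

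Rpt5, an ATPase gene of the base, was found in every replicate and in neither list made from combined replicates. Its best summit ranked 9226, 9436 and 6193 in replicates 1, 2 and 3, and lay 46, 35 and 49 bp from its start site. The pooled list had no summit within 4041 bp of that start site. Of 7905 summits of replicate 1 that were strong in all 3 replicates, 5 (0.0633%) had no pooled summit within 500 bp, and the Rpt5 site was one of them. Rpt6, also an ATPase gene, had a summit in replicate 3 alone, 2 bp from its start site at rank 8968, while the nearest summits of replicates 1 and 2 were 3486 and 3503 bp away.

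A further 6 standard genes had no summit in any list. They were Prosalpha1, Prosalpha3, Prosalpha6, Prosbeta4, Rpt1 and Rpn6, whose products stand in the alpha ring, the beta ring, the base and the lid. The nearest pooled summit was 1321 bp from the start site of Prosalpha3 and 17436 bp from that of Rpn6, the extremes of the 6. Among paralogs 13 had no summit in any list: Prosalpha1R, Prosalpha3T, Prosalpha4T1, Prosalpha4T2, Prosalpha6T, Prosbeta2R1, Prosbeta4R1, Prosbeta4R2, Prosbeta5R1, Prosbeta5R2, Rpn12R, Rpn13R and Rpt4R. Their nearest pooled summits were 8072 to 61760 bp from the start site. Prosbeta2R2 and Rpt6R had a pooled summit at ranks 14260 and 28792. The alpha ring, beta ring, base and lid thus each contained genes with an IDR-thresholded summit and genes without one, as the map of summits around start sites shows.

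**Figure D3:**
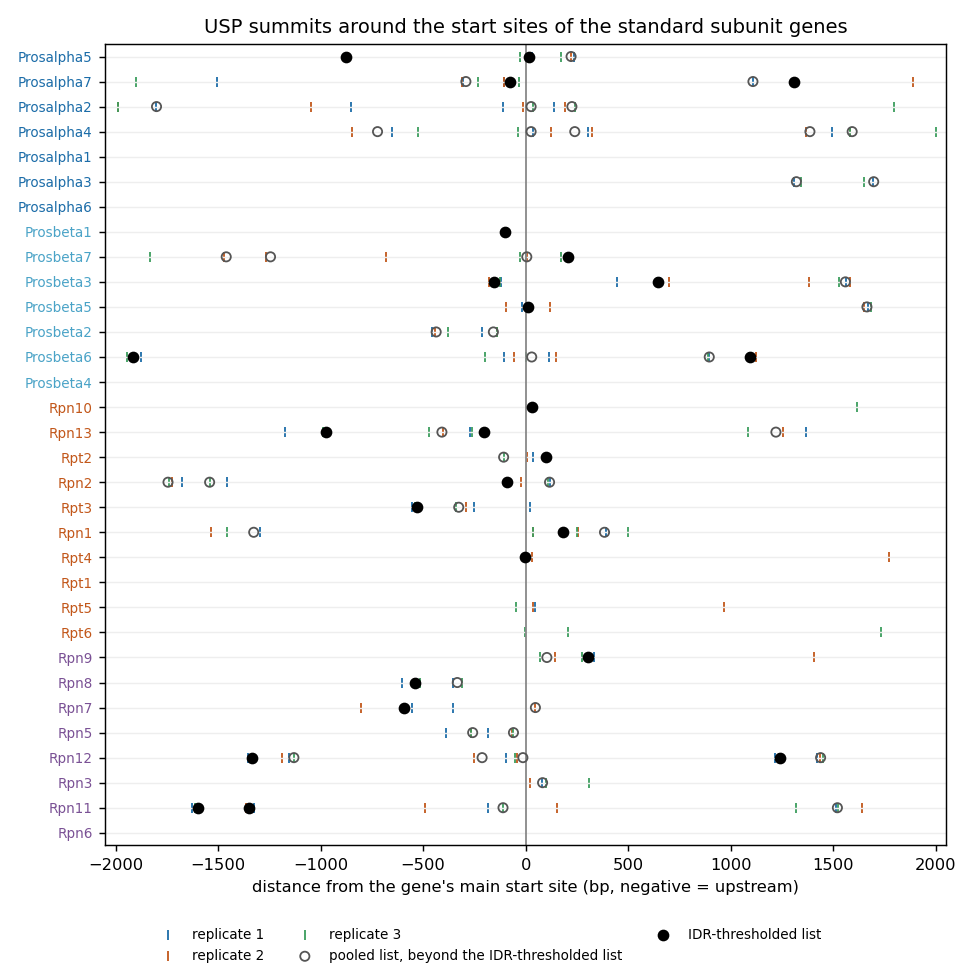
Summits within 2000 bp of the main start site of each of the 32 standard subunit genes, by distance in bp (negative upstream); filled circles are IDR-thresholded summits, open circles pooled summits beyond that list, and coloured ticks those of the 3 replicates. Distances in the text are from the nearest of a gene's start sites. Summits gather near the start sites, whereas Prosalpha1, Prosalpha6, Prosbeta4, Rpt1 and Rpn6 have none in view.

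Summits of members were close to start sites, often those of a pair of genes. Of the 17 bound members 11 had their strongest summit within 500 bp of one of their own start sites (64.7%), against 58.8% of all bound genes and 73.0% of bound genes in the length range. The median distance was 114 bp, against 305.5 bp and 177 bp. By any summit within 500 bp of a start site 14 members were bound, among them 13 standard genes (40.6%), against 28.0% of all protein-coding genes. The strongest summit also lay within 500 bp of a start site of another protein-coding gene for 12 of the 17 (70.6%), compared with 34.4% of all bound genes and 46.8% in the length range. For 6 of them (35.3%) the other gene's start site was the nearer one, compared with 22.1% and 29.1%.

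Such neighbours were common among the standard genes, bound or not, but not among the paralogs. Another gene's start site lay within 500 bp of the main start site for 21 of 32 standard genes (65.6%). It did so for 3 of 16 paralogs (18.8%), 29.3% of all protein-coding genes and 33.6% of those in the members' length range. Over all protein-coding genes, those with such a neighbour were bound in 48.1% of cases and those without in 30.7%. In the members' length range these shares were 46.3% and 25.0%. Among standard genes the counts were 12 of 21 with a neighbour (57.1%) and 4 of 11 without (36.4%). The 4 without were Prosalpha5, Prosbeta7, Rpn1 and Rpn10. Of the paralogs, 1 of 3 with a neighbour was bound (33.3%) and 0 of 13 without. A neighbouring start site was thus more common among standard genes than among paralogs. Among genes without one, the bound share was also lower in paralogs than in standard genes. The part of such neighbours in the difference between standard genes and paralogs was not tested. Expression of the genes was not measured here, and its part was not tested either.

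Sites of members were found again less completely in replicate 2 than in the others. Within 100 bp of the strongest summit, replicates 1 and 3 had a summit for all 17 bound members, and replicate 2 for 13 (76.5%). Over all bound genes the shares were 97.3%, 98.2% and, in replicate 2, 94.7%. The 4 without one in replicate 2 were Rpn10, Prosbeta5, Rpn9 and Rpt3R. For Rpn9 and Prosbeta5 replicate 2 had a summit elsewhere in the gene or upstream of it, at ranks 9896 and 11745. Within 200 bp, 15 of the 17 sites were found in every replicate. Among the 11195 strongest peaks of every replicate were the sites of 7 members (41.2%), against 78.5% of all bound genes and 73.3% in the length range. These sets were not matched on rank, and their median ranks were 7486, 4359.5 and 5335. The IDR-thresholded list was itself derived from replicates 2 and 3, so recovery in those replicates is not independent of it. Those 7 were Prosalpha5, Prosalpha7, Prosbeta1, Prosbeta7, Rpn13, Rpt2 and Rpn8. By a summit anywhere in the body or 1000 bp upstream, 10 of the 17 bound members were bound in every replicate. These included Prosbeta3, Rpn1 and Rpn9 as well. Of the 4990 bound protein-coding genes, 4252 were bound in every replicate in this way. Whether replicate 2 differed in depth is unknown from these files.

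Sequence under the summits was searched for 7 motifs on both strands, within 100 bp of the strongest summit of each bound member. AGGTCA, the receptor hexamer, lay near the summits of Prosbeta3 and Rpn8 (11.8%), against 6.24% of all IDR-thresholded summits and 5.15% of the 4427 at protein-coding promoters. EcRE IR1 matched none of the 17, and 0.447% of all summits. TGACNNNGC, the antioxidant response element bound by the CncC factor, which raises proteasome gene expression under stress in flies, matched none, against 8.20% of all summits. GAGAG, the word recognised by GAGA factor, lay near 5 (29.4%, all summits 34.5%), CACACA near 2 (11.8%, all summits 24.8%) and the E-box CACGTG near 1, Rpt3R (5.88%, all summits 3.06%). TATCGATA, the DNA replication-related element (DRE) bound by DREF, lay near 1, Prosbeta1 (5.88%), against 1.62% of all summits and 3.57% of promoter summits. A match is a description of the letters and not a measured site. The hexamer in Prosbeta3 is shown because it lay 4 bp from the summit; it is given on the minus strand, with the hexamer in capitals.
Prosbeta3, chr3R:9005561-9005590: accagctgtttgAGGTCAtcgcccagtcca

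The same motifs were searched in promoters, bound or not. In windows from 250 bp before to 50 bp after the main start site, the DRE matched 12 of 32 standard genes (37.5%), 0 of 16 paralogs and 1287 of 13945 protein-coding genes (9.23%). These 12 were Prosalpha3, Prosalpha5, Prosalpha6, Prosbeta1, Prosbeta2, Prosbeta6, Rpn3, Rpn7, Rpn9, Rpn12, Rpn13 and Rpt5. Of the 16 bound standard genes 5 had a match (31.2%), and of the 16 others 7 (43.8%). The antioxidant response element matched 5 standard genes (15.6%), namely Prosalpha2, Prosbeta3, Rpn1, Rpn7 and Rpt6, and 1 paralog, Prosbeta4R2 (6.25%), against 8.59% of all genes. GAGAG matched 3 standard genes (9.38%) and 6 paralogs (37.5%), against 30.2% of all. CACACA matched 3 (9.38%) and 1 (6.25%), against 19.4%, AGGTCA 0 and 1 (6.25%), against 5.82%, and CACGTG 0 and 0, against 4.20%. EcRE IR1 matched none of the members and 9 of all promoters (0.0645%). These differences were not tested.

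**Figure D4:**
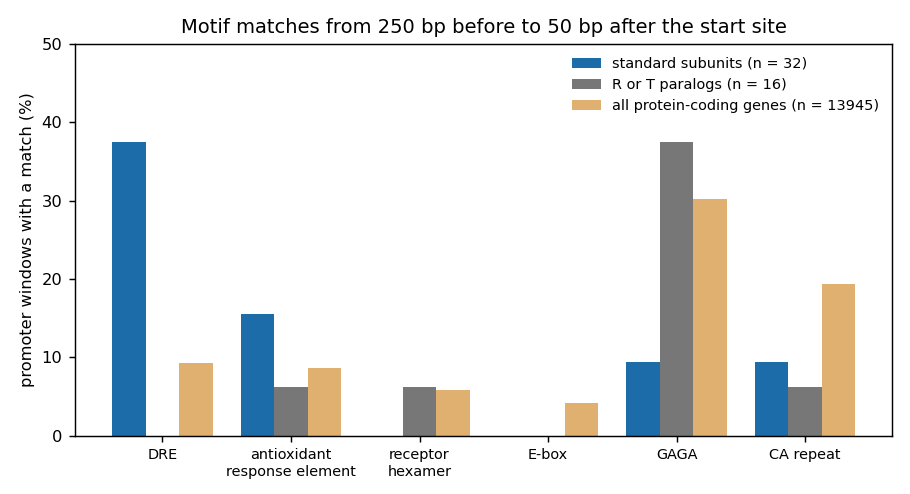
Percent of promoter windows, from 250 bp before to 50 bp after the main start site, with at least 1 match on either strand, for the 32 standard subunit genes, the 16 R or T paralogs and all 13945 protein-coding genes. The DRE bar is at 37.5% for standard genes, 0 for paralogs and 9.23% for all genes.

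The DRE matches of 7 standard genes are given with the bases around them, 5′ to 3′ on the plus strand. They are part of the contrast between standard genes and paralogs. Capitals mark the element.
Prosalpha6, chr2L:10221324-10221353: cccgaatccctTATCGATAcccgatacaca
Prosbeta2, chr3L:14999930-14999959: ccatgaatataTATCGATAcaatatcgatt
Prosbeta6, chr3L:16610444-16610473: tgcttaaacgtTATCGATAggtatacatac
Rpn3, chr2L:19051582-19051611: tgttatcggagTATCGATAtcgaaaaggct
Rpn7, chr3R:22462033-22462062: gaccccaaaatTATCGATAaattataccgc
Rpn12, chr3L:16582801-16582830: ttgttaaaataTATCGATAttaaagcacaa
Rpt5, chr3R:23752819-23752848: atcgctgtcacTATCGATAagcgccggcga
Of these 7 genes Rpn7 was bound, and Prosalpha6 had no summit in any list. Rpt5 had a site in each replicate but none in the pooled list, and the other 4 had weaker pooled summits. The matches of Prosalpha3, Prosalpha5, Prosbeta1, Rpn9 and Rpn13 are not printed. All of these but Prosalpha3 were bound, so the printed matches do not reflect the share of bound genes among those with a match.

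Other genes of the pathway were bound in 12 of 20 cases (60.0%), in a list that covers associated factors, ubiquitin supply and regulators, against 35.8% of all protein-coding genes and 36.9% at the same lengths. The list is short and was not tested. Of the 3 regulators 2 were bound, with 41.6% at the same lengths. The gene cnc, whose products include the stress factor CncC, had 17 summits (18 ± 1.00 over the replicates, n = 3), the strongest at rank 278 and at 283, 305 and 242 in replicates 1, 2 and 3. Keap1, which encodes the inhibitor of CncC, had 4 summits, as it did in each of the 3 replicates, the strongest at rank 321 and at 326, 327 and 314. Both genes therefore had sites stronger than any subunit gene in all 3 replicates. They are also longer, at 41132 and 6004 bp. The partner gene maf-S had no summit.

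Of the genes for ubiquitin supply, activation and unfolding 5 of 8 were bound (62.5%, against 35.8% of all genes and 39.5% at the same lengths). The polyubiquitin gene Ubi-p5E had its summit 83 bp upstream at rank 571, with 516, 768 and 555 in the replicates. TER94, the gene of the unfolding ATPase known as p97 in mammals, ranked 1173, with 869, 1357 and 1457. The ubiquitin-activating enzyme gene Uba1 ranked 3108, the other polyubiquitin gene Ubi-p63E 6761 and Ufd1, listed under its older symbol Ufd1-like, 7281. RpS27A and RpL40, which encode ubiquitin fused to ribosomal proteins, and Npl4, a partner of TER94, had none.

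Of the associated and assembly factors 5 of 9 were bound (55.6%, against 35.8% of all genes and 33.0% at the same lengths). Ubqn, a shuttle for ubiquitylated proteins, ranked 4160, and rngo, a shuttle of another kind, had 3 summits and a best rank of 7447. The deubiquitylases Uch-L5, which docks on Rpn13, and Usp14 ranked 7950 and 8956, and neither was bound in replicate 2. The strongest summits of Ubqn, rngo, Uch-L5 and Usp14 also lay near a start site of another gene. Pomp, the maturation factor of the core, ranked 9815, and replicate 3 alone had it among its strongest peaks. Sem1, the small lid subunit whose symbol falls outside the naming rule, PI31, REG and Rad23 had no summit.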

How the data were processed

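Peak lists of 3 ChIP-seq replicates (USP-eGFP, whole wandering larvae) were used. Per the file headers, the authors called each list on dm6 alignments with a control alignment, and derived the pooled and IDR-thresholded lists from replicates 2 and 3, not replicate 1. No aligner, caller or IDR cutoff was given in the sources used here. The deposited signal is the caller's score, unscaled between lists. The deposited −log10 q-value was constant in the IDR-thresholded list and was not used. The summit is an offset from the interval start, per the narrowPeak layout. Each full list held 30000 peaks, and its read depth is unknown. The IDR-thresholded list equalled the 11195 strongest pooled peaks.

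Genes came from Ensembl release 115 and sequence from RefSeq release 6; all 48 members began with ATG at the annotated position and no peak passed an arm's end. At most 1.86% of summits fell on the same base in 2 replicates, so no list was a copy. The replicates are separate biological samples per the labels. Calls, length classes (20) and motif counts were computed with Python 3.11.15, pandas 2.3.3 and numpy 2.4.6 and tested on simulated data. There is no control group and 1 condition, so no significance test was made. Alternatives covered peak list, window, replicates, summits per interval, the class of Rpn10, and distances. Full values were given for up to 4 bound genes of a class by rank and for bound paralogs. The printed stretch of Rpt4, the DRE matches and the Prosbeta3 hexamer were chosen after values were seen, and sequence on 2R is not shown. The neighbour of 1 member is not reported here. Members, gene lists and motifs were chosen with earlier results of these data known.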

Additional observations from a re-analysis of the deposited data

How the results depend on the processing

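Of 90 recomputed values 54 stayed within the tolerance (1.5 times for counts, 1 SD over replicates for a share) and 36 moved. With the 5597 strongest peaks 4 members, 4 standard, 1 core, 3 base, 0 lid and 0 paralog genes were bound, and 3056 of all genes. With the full pooled list these were 27 members, 10 core, 7 lid and 3 paralog genes. Gene bodies alone gave 10 members, 9 standard, 3 base and 3238 of all genes. The lid count was 5 with replicate 1 alone, 1 within 500 bp of a start site and 5 with 5000 bp upstream, which gave 2 paralogs. Leaving out a replicate, by asking for strong sites in the other 2, gave 8 to 13 members, 8 to 12 standard, 5 core, 2 to 5 base, 1 to 2 lid and 0 to 1 paralog genes, and 4147 to 4448 of all genes. With Rpn10 in the lid, base and lid had 6 and 4 bound genes. A single summit per interval left all counts of members the same. Within 1000 bp, 100% of strongest summits were at promoters. Sites found again in every replicate were 13 within 100 bp, 8 within 50 bp and 15 within 200 bp. With 200 bp on each side the DRE matched 3, the antioxidant response element 3 and CACACA 4 summits, and with 50 bp GAGAG matched 2 and the E-box 0. Fewer or more peaks and bases searched follow from the construction of these settings. No paired analysis was possible because there is 1 group. The unknown read depth limits any statement about absent summits.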

Other observations

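The neighbours that share the family's summits had varied functions. Among their genes were Rrp42, CtsL1, CG13599, Alg12, Slbp, CG1671, CG11122, Slik, mldr, dgo and AP-2mu, and each of these had a start site within 500 bp of the strongest summit of a bound member, at distances from 22 bp at Rrp42 to 197 bp at CtsL1. The peak lists cannot assign such a summit to either gene of a pair.

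Some sites found in several lists were absent from others. Of the 11195 IDR-thresholded summits 121 (1.08%) had no summit of replicate 2 within 500 bp, against 43 (0.384%) for replicate 1 and 17 (0.152%) for replicate 3. The 121 included the sites of Rpn10, with ranks of 1925 and 1458 in replicates 1 and 3, and of Rpt3R, with ranks of 6137 and 6802. The 5 sites strong in every replicate but missing from the pooled list lay at Rpt5 and RanBP3, at Dap160 and pths, at CycE, at ttv and at 1 place on X outside all protein-coding gene windows. Why these sites are missing was not tested.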
